A study of Mus musculus with 24 samples.

Results

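The endothelial and angiogenesis genes described here were Vegfa, Angpt1, Angpt2, Kdr, Flt1, Tek, Tie1, Pecam1, Cdh5 and Vwf, measured in mouse mammary tissue. A probe was assigned to them when its gene name in the array files equalled one of these symbols and it was not a control, which gave 15 of the 55681 probes on the array for the 10 genes. This assignment of probes did not use any measured value, but the genes were chosen with earlier results of these data known. Kdr, Vegfa and Vwf each had 2 probes, Flt1 had 3 and the other genes had 1, and a gene was represented by its brightest probe.

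The study profiled mammary glands of female mice of a pair of inbred strains, BALB/c, the strain more sensitive to radiation-induced mammary cancer, and SPRET/EiJ, the more resistant strain, which was derived from Mus spretus. Mice of both strains received a single whole-body X-ray dose of 10 cGy at 8 to 9 weeks of age (low-dose ionizing radiation, LDIR) or were sham treated, and no other treatment or genetic change was named for any group. BALB/c tissue was taken at 2, 4 and 8 weeks and SPRET/EiJ tissue at 4 weeks, so that the 8 groups held 3 arrays each, lettered A to C, and 24 arrays in all. Whole tissue was used, and the estrous phase of each mouse was not given in the sources used here.

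Blood vessels are lined by endothelial cells, which grow and sprout in answer to secreted ligands. Vegfa binds the receptors Kdr (VEGFR2), which carries most of the growth signal, and Flt1 (VEGFR1), which binds Vegfa tightly and can act as a decoy. Angpt1 activates the receptor Tek (Tie2) and steadies vessels, Angpt2 often opposes it on the same receptor, and Tie1 is a partner of Tek. Pecam1 and Cdh5 hold endothelial cells together at their junctions, and Vwf is the blood clotting protein that endothelial cells and platelets store. In the mammary gland the vessels run through a fat pad, and adipocytes and epithelium are sources of Vegfa.

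The probes are 60 bases long, and 4 of them are shown because results below turn on them or because they illustrate how close 2 members are. The receptors Tek and Tie1 are related, and their probes were compared base by base after sliding the Tie1 probe by 3 bases. Capitals mark the 39 of 57 overlapping bases (68.4%) that were identical in both, so the 2 probes remained different sequences. In the other probes no base was marked.
Tek: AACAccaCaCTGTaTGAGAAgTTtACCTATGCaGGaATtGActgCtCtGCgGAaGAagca
Tie1: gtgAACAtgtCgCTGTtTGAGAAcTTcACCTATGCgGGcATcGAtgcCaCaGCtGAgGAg
Pecam1: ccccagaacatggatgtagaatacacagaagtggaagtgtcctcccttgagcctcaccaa
Vwf probe 2, its first 30 bases: tagttaaacagaacaacagtgaagggcgga

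Per the array files, in mouse build mm9, Tek's probe lay at chr4:94540624-94540683 and Tie1's at chr4:118144132-118144191. The Pecam1 probe lay at chr11:106540864-106540923 and the Cdh5 probe at chr8:106668159-106668218. Vegfa probe 1, the brighter, lay at chr17:46154387-46154446. Kdr probe 1, the brighter, lay at chr5:76330395-76330454 and probe 2 at chr5:76329309-76329368. The Flt1 probes, from bright to dim, lay at chr5:148373791-148373850, chr5:148446872-148446931 and chr5:148465976-148466035, and the 2 Vwf probes at chr6:125636551-125636610 and chr6:125542106-125542165. The Angpt1 probe lay at chr15:42256335-42256394 and the Angpt2 probe at chr8:18691458-18691517. Which exon or UTR each probe meets was not analysed here.

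Of the 10 genes, 5 had a start site in the RefSeq promoter table (build GRCm38.p6). The ETS family of transcription factors, active in many endothelial promoters, binds the core GGAA, and the 250 bases before each start were searched for GGAAG on either strand (CTTCC marks the minus strand). Tie1 held 6 matches, Flt1 3, Kdr 1, each of the 2 Vegfa starts 1 and Tek 0. At least 1 match was present in 64.1% of all 32851 promoters, at least 3 in 10.7% and at least 5 in 1.0%. The receptor windows of Kdr, Flt1 and Tie1 are printed from 5′ to 3′ on the minus strand, which each gene uses, with matches in capitals, since Kdr and Flt1 were among the genes that differed over time below and Tie1 was not. A match describes letters and not binding.
Kdr, chr5:75978456-75978705: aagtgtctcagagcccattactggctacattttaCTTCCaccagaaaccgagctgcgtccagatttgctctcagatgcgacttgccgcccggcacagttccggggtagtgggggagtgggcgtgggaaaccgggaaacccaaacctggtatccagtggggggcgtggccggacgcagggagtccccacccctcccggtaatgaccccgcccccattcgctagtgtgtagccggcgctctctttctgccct
Flt1, chr5:147726012-147726261: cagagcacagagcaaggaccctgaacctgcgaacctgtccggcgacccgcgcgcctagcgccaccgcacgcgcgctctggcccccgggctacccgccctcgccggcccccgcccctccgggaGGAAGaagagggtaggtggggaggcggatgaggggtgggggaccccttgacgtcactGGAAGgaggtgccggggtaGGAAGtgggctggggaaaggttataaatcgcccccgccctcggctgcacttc
Tie1, chr4:118489850-118490099: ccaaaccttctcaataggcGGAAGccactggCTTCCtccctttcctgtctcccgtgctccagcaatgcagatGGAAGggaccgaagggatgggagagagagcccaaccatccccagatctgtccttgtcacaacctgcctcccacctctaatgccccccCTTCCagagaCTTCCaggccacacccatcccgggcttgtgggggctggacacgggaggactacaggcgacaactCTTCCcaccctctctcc

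A level is the log2 signal of a probe minus the 75th percentile of its array, so 0 is the level of a fairly bright probe and 1 unit is a 2-fold difference. Levels of different probes are not comparable with each other. Differences were tested with limma across all probes, and a probe was called at over 1.5-fold with an unadjusted p under 0.001 between strains or 0.05 for LDIR and time. The study's methods give these thresholds for unirradiated strains and for LDIR, and here they were also used for irradiated strains and for time. Adjusted p-values are Benjamini-Hochberg over all probes. The p-values measure the spread between 3 arrays of a group, which the methods call biological replicates. In whole tissue, fewer endothelial cells and less RNA per cell cannot be told apart.

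All 10 brightest probes were above background on all 24 arrays, and so were the markers Krt8 and Epcam of epithelium and Adipoq of adipocytes. Across the arrays 57.13 to 72.64% of probes were above background and none was saturated. Of the arrays, 3 stood apart by their leukocyte markers (Ptprc, Cd68, Emr1, Cd3e and Ms4a1), whose signals, added on the linear scale and turned to log2, came to 5.84 to 6.25 there and 3.12 to 4.62 on the other 21. The brightest genes of a list weigh most in such a sum. These were BALB/c 8-week sham A, BALB/c 8-week LDIR B and SPRET/EiJ LDIR A, and they were picked out after their marker levels had been seen. The 5 markers did not move alike. In SPRET/EiJ, with LDIR A included, LDIR minus sham was 4.19 for Ms4a1, 1.69 for Ptprc and 0.82 for Cd3e. It was 0.21 for Emr1 and -0.01 for Cd68, the macrophage markers. Ms4a1 was above background on 0 of the SPRET/EiJ sham arrays. On the 3 arrays the sum of the white adipocyte markers, on the same scale, was 9.40 to 9.79, against 10.34 to 11.35 elsewhere. That of the 10 genes was 5.30 to 5.39, against 5.61 to 6.59. The main results that include one of them are also given without it, except for fits with slide as a block. The arrays lay on 3 slides of 8. One slide held all 2-week arrays with 4-week sham A and B, another held the other 4-week BALB/c arrays with all 8-week sham arrays and 8-week LDIR A, and the last held 8-week LDIR B and C with all SPRET/EiJ arrays.

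**Figure D1:**
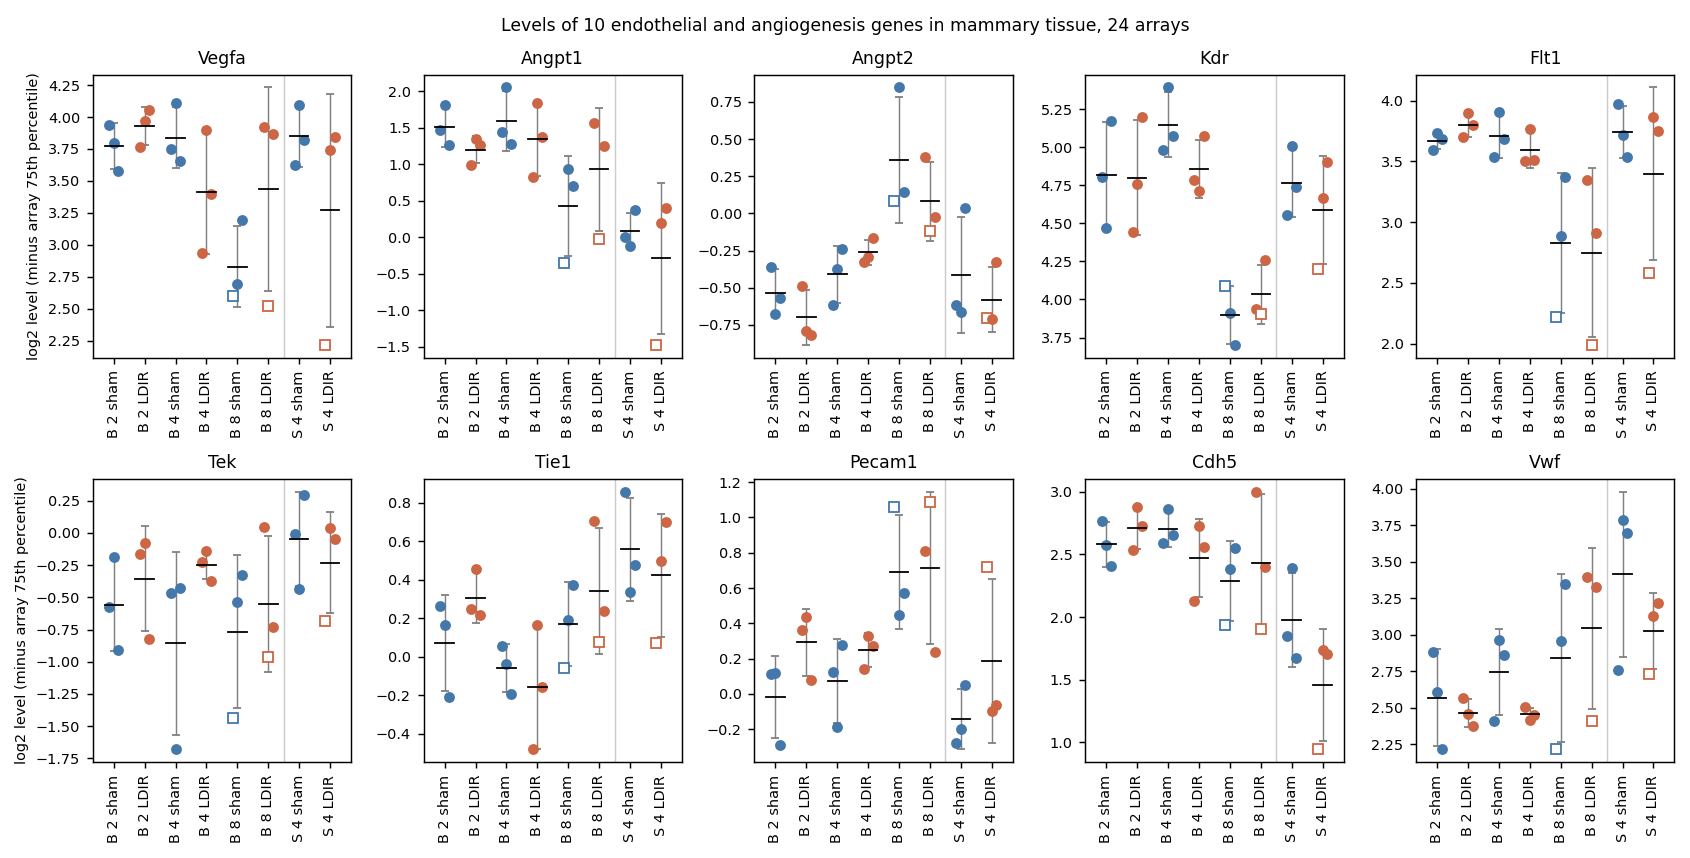
Log2 level (signal minus the 75th percentile of the array) of each gene's brightest probe on 24 arrays, by group on the horizontal axis (B, BALB/c; S, SPRET/EiJ; number, weeks). Blue points are sham and orange points LDIR arrays, open squares are the 3 arrays with high leukocyte markers, black bars are means and grey bars the SD of 3 arrays. The mean of Kdr is lower in both BALB/c groups at 8 weeks than in the other groups, and Angpt1 is lower in SPRET/EiJ than in BALB/c at 4 weeks.

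Among the brightest probes, Angpt1 had the widest range over the 24 arrays, from -1.47 to 2.05, and Tie1 the narrowest, from -0.48 to 0.86. Group means of Kdr fell in the order BALB/c sham at 4 weeks (5.15 ± 0.22, SD, n = 3), LDIR at 4 weeks (4.86 ± 0.19), sham at 2 weeks (4.82 ± 0.35), LDIR at 2 weeks (4.80 ± 0.38), SPRET/EiJ sham (4.77 ± 0.23), SPRET/EiJ LDIR (4.59 ± 0.36), BALB/c LDIR at 8 weeks (4.03 ± 0.19) and sham at 8 weeks (3.90 ± 0.19). Most neighbours in this order lay within 1 SD of each other, and the gap of 0.56 between SPRET/EiJ LDIR and BALB/c LDIR at 8 weeks was the widest. Angpt1 went from 1.59 ± 0.41 in BALB/c sham at 4 weeks to 0.43 ± 0.69 in sham at 8 weeks, 0.09 ± 0.25 in SPRET/EiJ sham and -0.29 ± 1.03 in SPRET/EiJ LDIR. Pecam1 and Angpt2 ran the other way in BALB/c, with their 2 highest group means at 8 weeks. For Pecam1 the gap of 0.40 between sham at 8 weeks and LDIR at 2 weeks exceeded the SD of both, as did the gap of 0.34 for Angpt2 between LDIR at 8 and at 4 weeks, and in neither case did the arrays overlap.

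More of the 10 genes were called over time in unirradiated BALB/c mice than in any other comparison made here. Kdr, Vegfa, Angpt1 and Flt1 were lower and Angpt2 and Pecam1 higher at 8 weeks than at 2 and 4 weeks after sham treatment. By the moderated F test over the 3 times 6 of the 10 genes were called, where 15.9% of all probes and 17% of named genes were called. None of the 6 had an adjusted p under 0.05 on its brightest probe, which 1.59% of all probes had. Counted by single contrasts, the same 2 genes were higher and the same 4 lower at 8 than at 4 weeks and at 8 than at 2 weeks, where 16% and 17.7% of all probes were called.

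The main Vegfa receptor, Kdr, read 4.80, 4.47 and 5.17 on the 2-week arrays, 4.98, 5.39 and 5.07 on the 4-week arrays, and then 4.09, 3.91 and 3.70 on the 8-week arrays. All 8-week arrays were below all earlier ones. Kdr fell by 1.25 (SE 0.24, 95% interval -1.80 to -0.70, 2.38-fold) from 4 to 8 weeks, with a limma adjusted p of 0.0431 for that contrast and 0.075 for the F test. The dimmer Kdr probe, carried on 10 spots, read 2.76 to 3.05 at 2 weeks, 2.96 to 3.19 at 4 weeks and 1.60 to 1.99 at 8 weeks, with a limma adjusted p of 0.0337 in the F test.

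The growth factor Vegfa started at 3.94, 3.80 and 3.58 (2 weeks), stayed at 3.75, 4.11 and 3.66 (4 weeks), and was at 2.60, 2.70 and 3.19 after 8 weeks. Again the 8-week arrays lay below the earlier ones without overlap. Vegfa fell by 1.01 (SE 0.24, 2.01-fold) from 4 to 8 weeks, with a limma adjusted p of 0.0707. Its second probe gave 2.33, 2.35 and 2.47, then 2.11, 2.15 and 2.13, and then 0.80, 0.72 and 0.84, with the 8-week arrays again lowest. That probe fell by 1.60 between 2 and 8 weeks (3.02-fold, limma adjusted p of 0.00838) and had an adjusted p of 0.0136 in the F test.

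Angpt1, the vessel-steadying ligand of Tek, was at 1.46, 1.81 and 1.27 on the 2-week arrays, at 1.44, 2.05 and 1.28 on the 4-week arrays, and at -0.35, 0.94 and 0.70 on the 8-week arrays. The lowest of these was 8-week sham A, one of the 3 arrays with high leukocyte markers, but the other two 8-week arrays were also below every earlier array. Angpt1 fell by 1.16 (SE 0.38) from 4 to 8 weeks, with a limma adjusted p of 0.149. Its counterpart Angpt2 went from -0.36, -0.68 and -0.57 at 2 weeks through -0.62, -0.38 and -0.24 at 4 weeks to 0.08, 0.85 and 0.14 at 8 weeks, a rise of 0.90 over the whole span with a limma adjusted p of 0.104. The 8-week arrays of Angpt2 were all above the earlier ones.

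Flt1, the other Vegfa receptor, read 3.60 to 3.73 at 2 weeks, 3.54 to 3.91 at 4 weeks and 2.22, 2.88 and 3.37 at 8 weeks, a fall of 0.89 from 4 weeks (SE 0.29, limma adjusted p of 0.155). Its dimmest probe fell by 1.70 over the same weeks (adjusted p of 0.069), and its middle probe had a limma F test p of 0.652. The junction protein Pecam1 read 0.12, 0.12 and -0.29 (2 weeks), 0.12, -0.18 and 0.28 (4 weeks), and 1.06, 0.45 and 0.57 (8 weeks), with the 8-week arrays all above the others. Pecam1 was 0.71 higher at 8 than at 2 weeks (limma adjusted p of 0.158).

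The other 4 genes were not called over time. Their limma F test p-values were 0.22 for Cdh5, the adhesion molecule of endothelial junctions, 0.779 for Tek, 0.584 for Tie1 and 0.717 for Vwf. Between 4 and 2 weeks none of the 10 was called, against 1.57% of all probes. The dimmer Vwf probe did change: its levels were -1.80, -2.94 and -2.61 on the 2-week arrays, -2.68, -2.35 and -2.08 on the 4-week arrays, and -0.86, -0.83 and -0.66 on the 8-week arrays, 1.67 higher than at 2 weeks (limma adjusted p of 0.0375). The brighter Vwf probe read 2.22, 2.95 and 3.35 at 8 weeks and overlapped the earlier times, so the 2 Vwf probes disagreed.

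**Figure D2:**
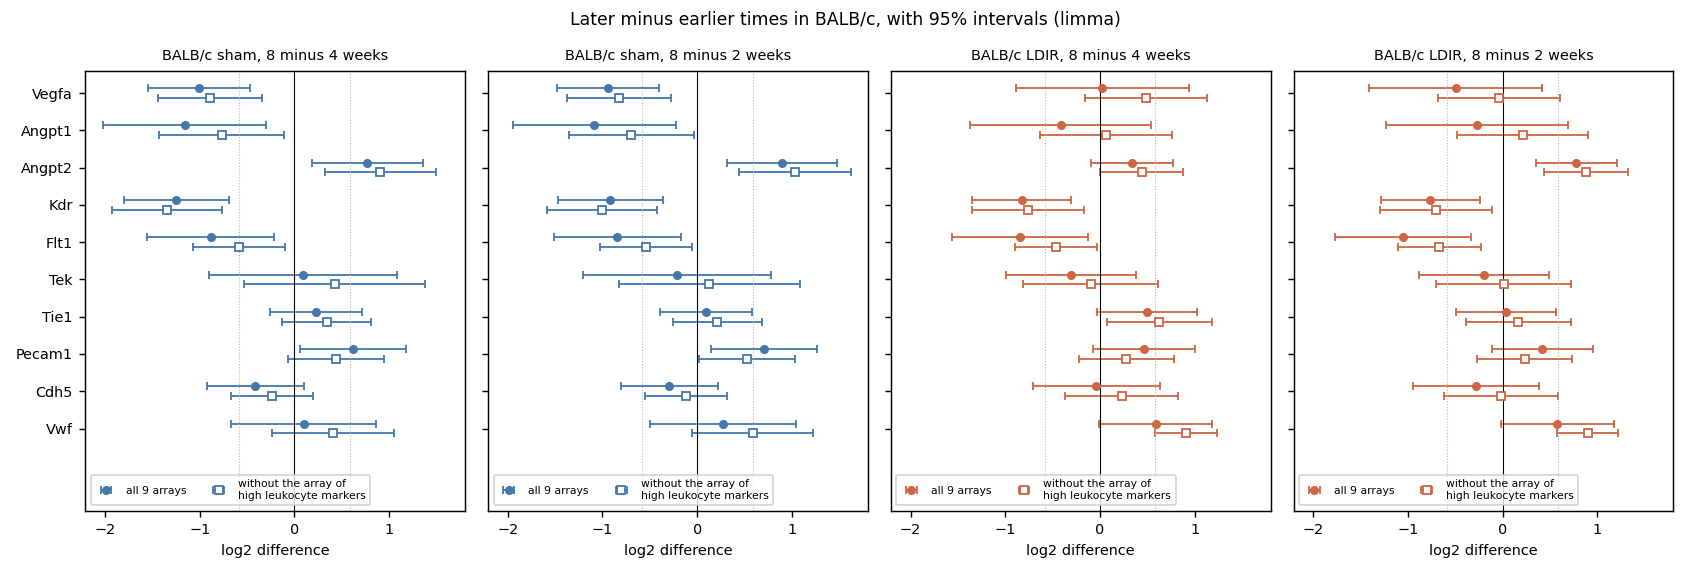
Log2 difference between times with its 95% interval (limma) for each gene's brightest probe in BALB/c, sham arrays in blue and LDIR arrays in orange. Filled points use all 9 arrays, open squares leave out the array with high leukocyte markers, and dotted lines mark 1.5-fold. In sham arrays the Kdr, Vegfa and Angpt1 intervals lie below 0 and the Angpt2 interval above 0 with and without that array.

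Without 8-week sham A the F test called 3 of the 10 (Kdr, Vegfa and Angpt2), against 19.9% of all probes. The difference between 8 and 4 weeks was then -1.34 for Kdr (limma adjusted p of 0.0267), -0.89 for Vegfa (0.0697), -0.77 for Angpt1 (0.153) and 0.91 for Angpt2 (0.0803), while the Vegfa probe 2 difference was -1.35 (adjusted p of 0.00762). Flt1 differed by -0.58, under 1.5-fold, and Pecam1 by 0.44 with an unadjusted p of 0.0813 in limma. Time also ran with slide: all 2-week arrays lay on 1 slide and all 8-week sham arrays on another. With slide as a block only Kdr of the 10 was called (limma F test p 0.0284, adjusted p 0.799), against 5.98% of all probes. Every p-value of this fit is of the F test over the 3 times and not of the single difference printed beside it. The Kdr difference between 8 and 4 weeks was then -1.17. Those of the genes no longer called were -0.83 for Vegfa (F test p 0.106), -0.86 for Flt1 (p 0.216), -0.85 for Angpt1 (p 0.318), 0.60 for Angpt2 (p 0.325) and 0.41 for Pecam1 (p 0.527). The dimmer probes of Kdr (-1.25, F test p 0.00833) and Vegfa (-1.34, p 0.002) and the dimmest of Flt1 (-1.96, p 0.0315) were still called, with adjusted p-values of 0.712, 0.639 and 0.802 in limma. On the slide that held both times, the only 4-week array read 5.07 for Kdr against 3.70 to 4.09 on the 8-week arrays, 2.13 against 0.72 to 0.84 for Vegfa probe 2, 3.69 against 2.22 to 3.37 for Flt1, 1.28 against -0.35 to 0.94 for Angpt1, -0.24 against 0.08 to 0.85 for Angpt2 and 0.28 against 0.45 to 1.06 for Pecam1.

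The 9 irradiated BALB/c arrays are a separate set of samples at the same times. Their F test called 3 of the 10, Kdr, Flt1 and Angpt2, against 24.3% of all probes. From 2 to 8 weeks after LDIR Kdr fell by 0.77 (limma adjusted p of 0.0866), Flt1 fell by 1.05 (0.0871) and Angpt2 rose by 0.78 (0.048). Vegfa differed by -0.50 (unadjusted p 0.246) and Angpt1 by -0.27 (unadjusted p 0.539), and neither was called. Without 8-week LDIR B, the values were -0.70 for Kdr, -0.67 for Flt1, 0.88 for Angpt2 and -0.04 for Vegfa, and Vwf was called as well, at 0.90 (limma adjusted p of 0.0128), where 18.7% of all probes were called. Over all 9 arrays that share was 20.3%. The difference between sham and irradiated arrays in their course over time was not tested. No slide held both 2-week and 8-week irradiated arrays, so here too time and slide cannot be told apart between these weeks. No value with slide as a block is given for the irradiated arrays.

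Between the strains at 4 weeks, the dimmer Vwf probe was the only one of the 15 member probes called, higher in BALB/c in sham and in irradiated mice. None of the 10 brightest probes was called in sham mice, against 8.89% of all probes, and 17848 probes had an unadjusted p under 0.05 in limma. An adjusted p under 0.05 was reached by 1 of the 10, Angpt1, and by 18.8% of all probes. Angpt1 had levels of 1.44, 2.05 and 1.28 in BALB/c and 0.01, -0.12 and 0.37 in SPRET/EiJ. The groups did not overlap, and Angpt1 was 1.5 higher in BALB/c (SE 0.26, 95% interval 0.87 to 2.14, 2.83-fold, unadjusted p 0.00101, limma adjusted p 0.0113).

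For Cdh5 the sham levels were 2.59, 2.86 and 2.65 in BALB/c and 1.85, 2.40 and 1.68 in SPRET/EiJ. These did not overlap either, with a difference of 0.73 (SE 0.23, 1.66-fold, limma adjusted p of 0.0805). Tie1 was at 0.06, -0.04 and -0.19 in BALB/c and at 0.86, 0.34 and 0.48 in SPRET/EiJ, which was the only member whose sham groups separated with BALB/c lower (-0.61, SE 0.20, 1.53-fold, limma adjusted p of 0.0825). The groups of these 3 genes did not overlap, as was the case for 43% of named genes. Vegfa (-0.01), Angpt2 (0.001) and Flt1 (-0.03) were nearly level between the strains.

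In irradiated mice none of the 10 was called, against 5.67% of all probes, and none had an adjusted p under 0.05, against 11.1%. For 3 of the 10 the groups did not overlap, against 36% of named genes. Angpt1 was at 0.83, 1.83 and 1.37 in BALB/c and -1.47, 0.20 and 0.41 in SPRET/EiJ, 1.63 higher without overlap (SE 0.55, limma adjusted p of 0.118). Cdh5 was at 2.13, 2.73 and 2.56 against 0.95, 1.73 and 1.70, again higher without overlap by 1.01 (SE 0.31, limma adjusted p of 0.0949). Tie1 differed by -0.58 with an unadjusted p of 0.0807 in limma. The lowest Angpt1 and Cdh5 values came from SPRET/EiJ LDIR A, which has high leukocyte markers. Without it the differences were 1.04 for Angpt1 (limma adjusted p of 0.0887), 0.75 for Cdh5 (0.0861), -0.76 for Tie1 (0.0953) and -0.72 for the brighter Vwf probe (0.0351), and 7.9% of all probes were called.

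Vwf gave opposite answers on its 2 probes. The brighter probe was at 2.41, 2.96 and 2.86 in BALB/c sham and 2.76, 3.78 and 3.70 in SPRET/EiJ sham, overlapping groups with a difference of -0.67 (limma adjusted p of 0.223). In irradiated mice it was at 2.50, 2.42 and 2.45 against 2.73, 3.13 and 3.22, lower in BALB/c without overlap (-0.57, SE 0.23, limma adjusted p of 0.182). The dimmer probe, whose first 30 bases are printed above, was well above background on each of the 18 BALB/c arrays but on none of the 6 from SPRET/EiJ. It was at -2.68, -2.35 and -2.08 in BALB/c sham and -6.44, -6.93 and -5.60 in SPRET/EiJ sham, not well above background there, so that the level in BALB/c was at least 8.4-fold higher (limma adjusted p of 0.00113). In irradiated mice it was at least 10.7-fold higher (limma adjusted p of 0.000275). The probes carry reference mouse sequence, and for a strain derived from another species a lower level and a base difference under the probe cannot be told apart.

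**Figure D3:**
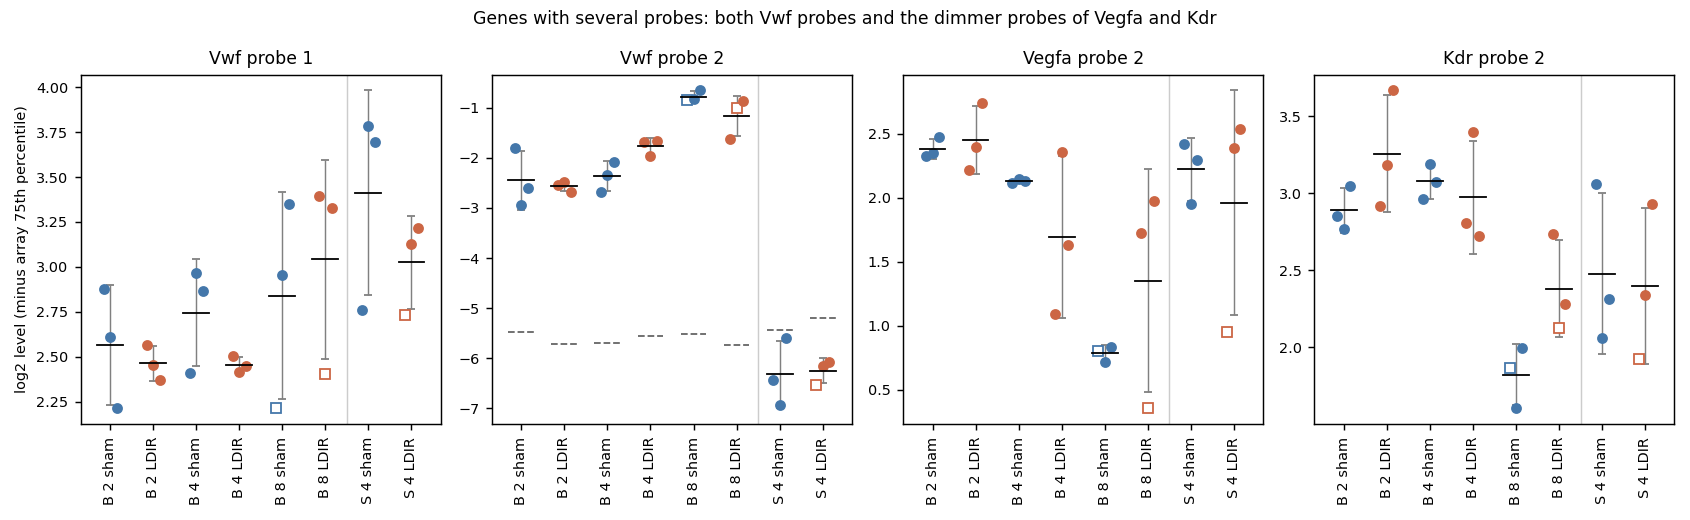
Log2 level (signal minus the 75th percentile of the array) of both Vwf probes and of the dimmer Vegfa and Kdr probes on 24 arrays, by group (B, BALB/c; S, SPRET/EiJ; number, weeks). Blue is sham, orange LDIR, open squares the 3 arrays with high leukocyte markers, black bars the mean and grey bars the SD of 3 arrays, and the dashed lines in the Vwf probe 2 panel the mean of the lowest level well above background. Vwf probe 2 lies below the dashed line in SPRET/EiJ, where probe 1 is not lower than in BALB/c.

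Slide and strain ran together at 4 weeks, since all SPRET/EiJ arrays were on a slide with no 4-week BALB/c array. In a fit of all 24 arrays with slide as a block, in which that slide is tied to BALB/c through 2 irradiated 8-week arrays, the sham differences were 0.23 for Angpt1 (limma p 0.81), -0.17 for Cdh5, -1.30 for Tie1 (p 0.0105) and 4.92 for Vwf probe 2. One of these 2 arrays, 8-week LDIR B, had high leukocyte markers and the lowest Angpt1 (-0.03) and Cdh5 (1.9) levels of its group. Values of this fit without that array are not given. For Angpt1 and Cdh5 strain and slide cannot be told apart. Cell type markers differed between the strains too. On the other 21 arrays log2 of the summed signal of the epithelial markers was 7.06 to 8.66 in BALB/c and 4.71 to 7.10 in SPRET/EiJ, and that of the platelet markers 2.44 to 4.31 and 5.24 to 5.95. The platelet sum was mostly Pf4, whose mean level of 3.92 was far above that of the next marker (-3.20). In sham mice Pf4 (-2.24), Ppbp (-1.93) and Gp1bb (-1.025) were lower in BALB/c, while Itga2b (0.19) and Gp9 (0.98) were not. The part of these cell types in the strain differences was not tested.

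LDIR gave no called change in the brightest probe of any of the 10 genes at any time in BALB/c or in SPRET/EiJ. The shares of all probes called were 3.05% at 2 weeks, 4.83% at 4 weeks, 1.92% at 8 weeks and 2.21% in SPRET/EiJ. No probe of the array had an adjusted p under 0.05 in limma in these comparisons, while 2799, 3440, 1098 and 1238 had an unadjusted p under 0.05. Each comparison shares its sham arrays with the comparisons over time and between strains.

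At 2 weeks the 10 differences ran from -0.32 for Angpt1 (unadjusted p 0.16 in limma) to 0.31 for Pecam1 (unadjusted p 0.143), and 6 of 10 were higher after LDIR. Their median was 0.13, and that of all probes -0.02. Pecam1 read 0.36, 0.44 and 0.08 after LDIR against 0.12, 0.12 and -0.29, and Angpt1 read 0.99, 1.35 and 1.26 against 1.46, 1.81 and 1.27. Both pairs of groups overlapped. Same-lettered arrays deviated together at this time over probes above background on all arrays, but hardly over all probes, and the labels state no pairing. Within the letters A, B and C Pecam1 was higher after LDIR by 0.25, 0.32 and 0.37 and Angpt1 differed by -0.48, -0.46 and -0.01. Paired by letter, the unadjusted limma p was 0.0691 for Pecam1 and 0.127 for Angpt1 (adjusted p of 0.731 and 0.732), and none of the 10 was called. All of these arrays lay on 1 slide.

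At 4 weeks 3 of 10 were higher after LDIR, with a median of -0.18 against 0.02 for all probes. Vegfa was at 2.94, 3.90 and 3.40 after LDIR and at 3.75, 4.11 and 3.66 after sham, a difference of -0.43 (unadjusted p 0.177 in limma) within overlapping groups. When arrays were left out singly, Vegfa was called only without LDIR B, at -0.67 (SE 0.26, unadjusted p 0.0433, adjusted p 0.86 in limma). LDIR B held the highest irradiated value and was not among the arrays with high leukocyte markers, so this call rests on the choice of array. The share of all probes called in that setting is not given. Tek, the Angpt receptor, read -0.22, -0.14 and -0.37 against -0.47, -1.68 and -0.43, and was the only member whose groups did not overlap (0.61, unadjusted p 0.133 in limma), as was the case for 12.9% of named genes. The wide interval came with 1 low sham array, B. The dimmer Vwf probe read -1.69, -1.95 and -1.67 after LDIR against -2.68, -2.35 and -2.08, a called difference of 0.60 without overlap (SE 0.21, unadjusted p 0.0257, adjusted p 0.775 in limma). With slide as a block it was 0.31 (unadjusted p 0.282 in limma), and 4 of 6 arrays, left out singly, ended the call.

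At 8 weeks 8 of 10 were higher after LDIR, with a median of 0.16 against -0.14 for all probes and -0.07 for named genes. With quantile normalization these medians were 0.16, 0.01 and 0.02. Vegfa was at 3.92, 2.52 and 3.86 after LDIR and at 2.60, 2.70 and 3.19 after sham, 0.61 higher with overlapping groups (unadjusted p 0.228 in limma). The low irradiated array was B, one of those with high leukocyte markers, and sham A was another. Without these 2 arrays Vegfa was 0.95 higher (SE 0.24, 95% interval 0.28 to 1.62, 1.93-fold, unadjusted p 0.0165, adjusted p 0.968 in limma) and was called, with 4.35% of all probes. Its second probe then differed by 1.07 (2.1-fold, unadjusted p 0.00491, adjusted p 0.951 in limma). On the slide that held all 8-week sham arrays, the only irradiated 8-week array, A, read 3.92 for Vegfa against 2.60 to 3.19.

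The dimmer Kdr probe read 2.73, 2.13 and 2.28 after LDIR at 8 weeks and 1.86, 1.60 and 1.99 after sham, without overlap (0.56, unadjusted p 0.081 in limma), where 4.35% of named genes did not overlap. The brighter Kdr probe overlapped, at 3.94, 3.90 and 4.26 against 4.09, 3.91 and 3.70. Angpt1 was at 1.57, -0.03 and 1.25 against -0.35, 0.94 and 0.70, a difference of 0.50 (unadjusted p 0.399 in limma). Without the 2 arrays it was 0.59 (unadjusted p 0.0528).

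In SPRET/EiJ 1 of 10 was higher after LDIR, with a median of -0.26 against 0.03 for all probes. Vegfa read 2.22, 3.74 and 3.85 against 3.63, 4.10 and 3.82 (-0.58, unadjusted p 0.255 in limma), and Pecam1 read 0.72, -0.10 and -0.06 against -0.28, -0.20 and 0.05 (0.33). In each the array that stood apart was LDIR A, lowest for Vegfa and highest for Pecam1. Without it the 10 differences ran from -0.26 to 0.22, 5 of the 10 changed sign and none was called, against 3.77% of all probes.

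**Figure D4:**
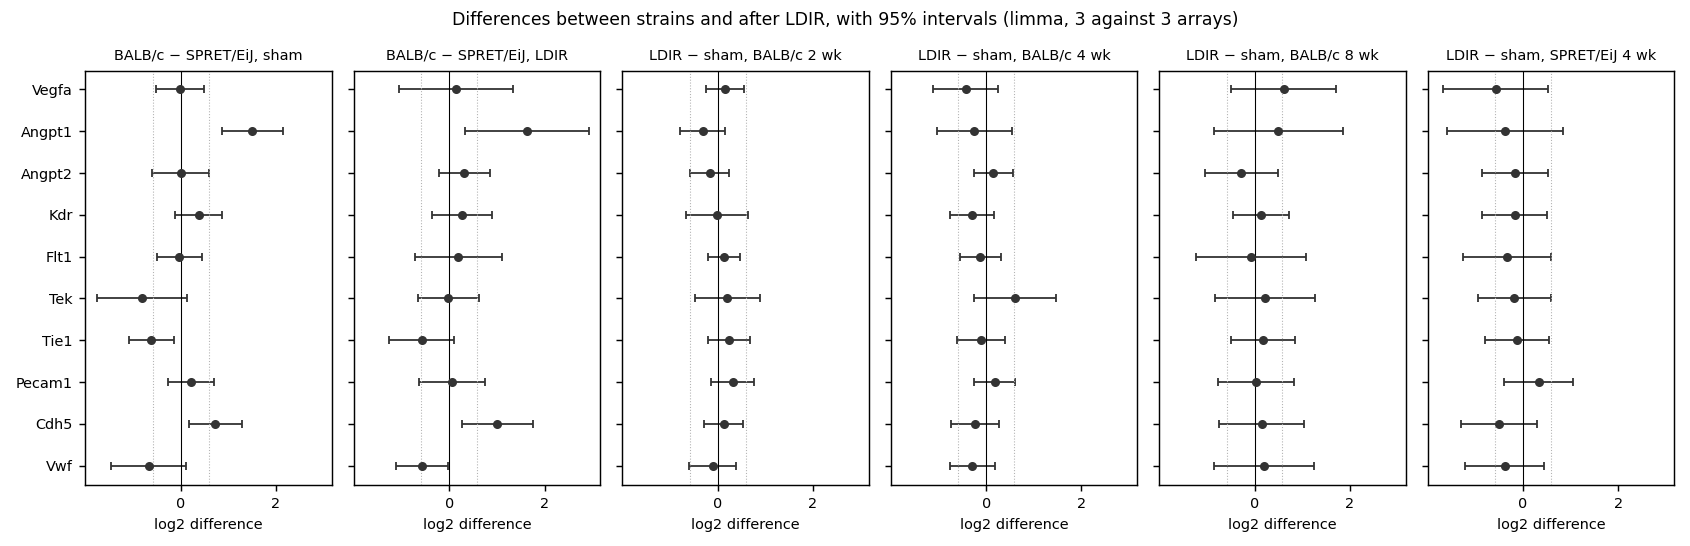
Log2 difference with its 95% interval (limma, 3 against 3 arrays) for each gene's brightest probe between strains at 4 weeks and between LDIR and sham. Dotted lines mark 1.5-fold and the black line no difference. In the 4 LDIR panels every interval includes 0, and in the sham strain panel the Angpt1 and Cdh5 intervals lie above 0 and the Tie1 interval below.

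Over the 3 times together in BALB/c, the LDIR differences ran from -0.10 to 0.34 and none was called, against 1.16% of all probes. Tek was at the top (unadjusted p 0.126 in limma). Without the arrays of high leukocyte markers 1.74% of all probes and none of the 10 were called. The test of whether the LDIR change at 4 weeks differed between the strains called none of the 10 either, against 3.59% of all probes. Its widest value was Tek, whose change was 0.80 greater in BALB/c (SE 0.50, unadjusted p 0.136 in limma). Without SPRET/EiJ LDIR A it was 0.57 (unadjusted p 0.273) and 6 of the 10 values changed sign, with none called against 4.56% of all probes. For both tests the counts at an unadjusted p under 0.05 over all probes were 1857 and 2003.

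On each of the 3 arrays with high leukocyte markers, 7 of the 10 genes were at the lowest level of their group (Cdh5, Flt1, Tek, Tie1, Vegfa, Angpt1 and Vwf). Pecam1, which leukocytes and platelets also carry, was at the highest level of its group on all 3, and Kdr was at the highest on 8-week sham A and at the lowest on the other two. Their Pecam1 levels were 1.06, 1.09 and 0.72, against a highest value of 0.81 elsewhere. Flt1 was at 2.22, 1.99 and 2.58 on them and at 2.88 or above on the other 21 arrays, and Vegfa at 2.60, 2.52 and 2.22 against 2.70 or above. The log2 of the summed signal of 6 markers of activated endothelium and high endothelial venules, the vessels through which lymphocytes leave the blood, was 3.98 to 4.41 on the 3 arrays and 1.33 to 2.59 on the others. That of the 18 other endothelial identity genes overlapped, at 6.80 to 7.42 and 7.33 to 7.93. The part of these cells in the levels of the 10 genes was not tested.

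**Figure D5:**
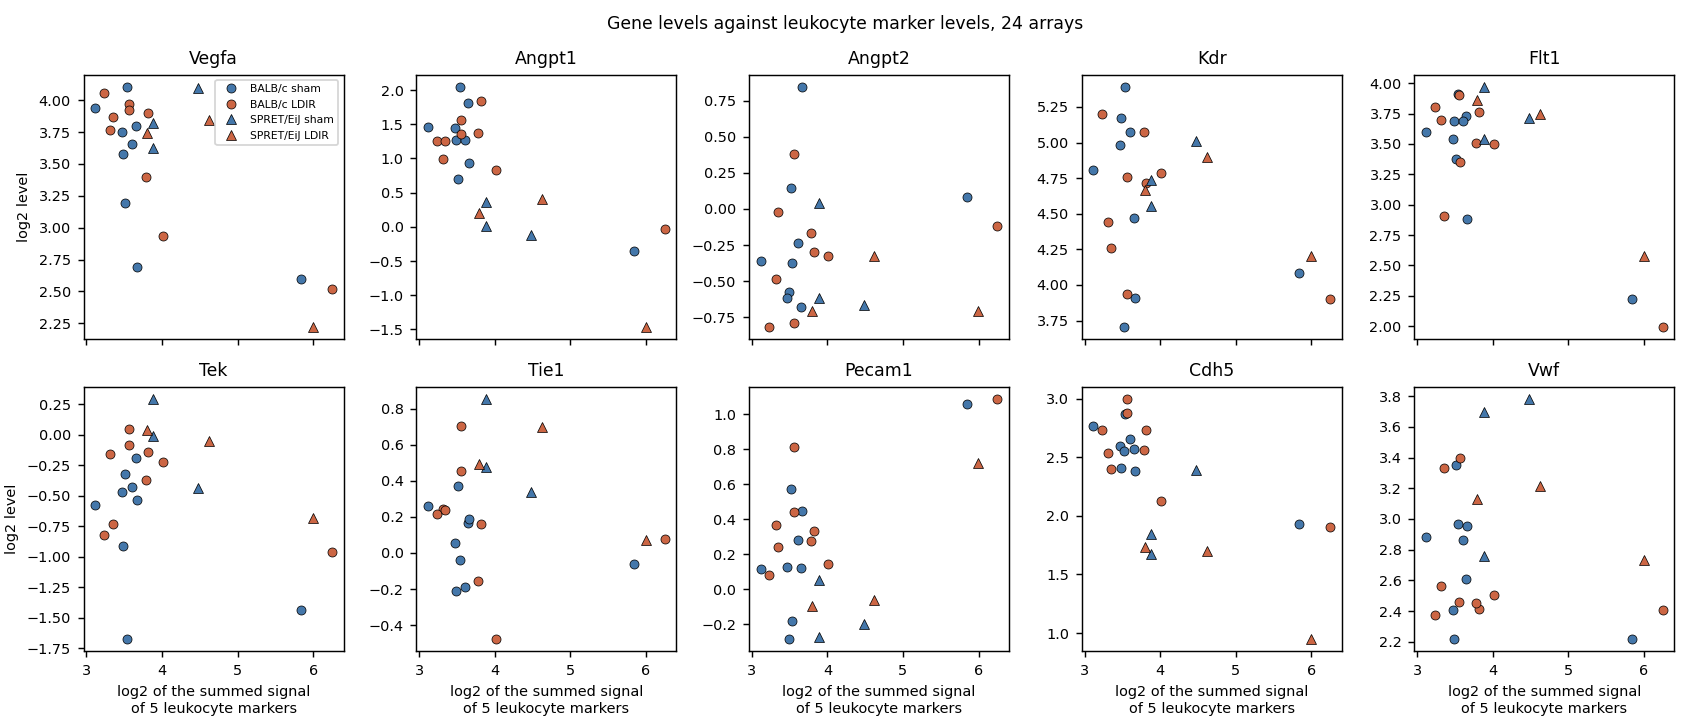
Log2 level of each gene's brightest probe (vertical axis) against log2 of the summed signal of 5 leukocyte markers (horizontal axis) on 24 arrays, blue for sham, orange for LDIR, circles for BALB/c and triangles for SPRET/EiJ. The 3 arrays at 5.84 to 6.25 on the horizontal axis hold the lowest Flt1 and Vegfa levels and high Pecam1 levels.

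Within groups the genes varied together to different degrees. As deviations from group means over the 24 arrays, each gene was correlated with the mean of the other 9, and these descriptions share their arrays, so no p is given. The correlation was 0.88 for Angpt1, 0.83 for Cdh5 and for Vegfa, 0.80 for Flt1, 0.68 for Tie1, 0.66 for Vwf and 0.47 for Tek. It was 0.37 for Angpt2, 0.005 for Kdr and -0.56 for Pecam1. Without the 3 arrays with high leukocyte markers, over 21 arrays, it was 0.64 for Cdh5, 0.61 for Vegfa, 0.58 for Angpt1, 0.54 for Tie1, 0.50 for Pecam1 and 0.28 for Flt1 and for Vwf. Angpt2 was then at 0.07, Tek at 0.03 and Kdr at -0.35, so Pecam1 changed sign and most values were lower without these arrays.

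The genes outside the 10 most like the mean of Pecam1, Cdh5, Kdr, Flt1, Tek and Tie1 by the same measure were Slc22a3 (0.927), Ablim3 (0.926), Tcf15 (0.910), Robo4 (0.910), Ptprb (0.905), Arap3 (0.904), Bmp6 (0.904), Wscd2 (0.896), 9430020K01Rik (0.892) and Rgnef (0.891). Robo4 and Ptprb, a phosphatase that acts on Tek, are endothelial genes. Over 15508 candidate genes the median correlation was 0.187, and 347 exceeded 0.8. Over the 21 arrays the median was 0.08, the same 10 genes were at 0.75 to 0.88, and 6 of them were still among the first 10 (Ablim3, Robo4, 9430020K01Rik, Wscd2, Slc22a3 and Ptprb).

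Other genes of the same pathways also differed over time in unirradiated BALB/c, in both directions. The 2-week and the 8-week arrays, sham and irradiated, lay on different slides, so for these genes time and slide cannot be told apart. No value with slide as a block is given for them. All values in the next paragraphs are log2 differences between 8 and 2 weeks of sham arrays with unadjusted limma p, beside a median of 0.08 and a called share of 17.7% over all probes. Of 7 other VEGF ligands and receptors, 2 were higher, Pgf (0.94, p 0.00894), a ligand of Flt1, and Flt4 (1.19, p 0.0136), the lymphatic receptor, and Vegfb was lower (-0.87, p 0.0199). Of 18 other endothelial identity genes, 3 were higher, the vessel-wall proteins Plvap (1.06, p 0.00704) and Cldn5 (0.87, p 0.005) and the co-receptor Eng (0.69, p 0.00769). Nos3, the endothelial nitric oxide synthase (-0.99, p 0.0107), and Ptprb (-1.0, p 0.00686) were lower. The median of that list was 0.29.

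Among 12 Notch and tip or stalk cell genes, Esm1, a tip cell gene, rose by 1.22 (p 0.000853), and Notch1 (-1.32, p 0.0277) and its ligand Jag1 (-0.82, p 0.0378) fell, with a list median of -0.002. Lymphatic markers were higher in 3 of 5, led by Lyve1 (2.40, p 0.00114), and endothelial activation genes in 2 of 6, the leukocyte adhesion molecules Icam1 (2.05, p 0.00215) and Vcam1 (1.42, p 0.0132). Of 12 mural cell markers none was higher and the pericyte genes Cspg4 (-1.21, p 0.0177) and Abcc9 (-1.21, p 0.000458) were lower. Of 9 hypoxia targets and sensors 3 were higher, among them Adm (1.60, p 0.00856), the vasodilator peptide, and the glucose transporter Slc2a1 (0.87, p 0.00334), and Bnip3 (-1.16, p 0.00364) was lower. Of 8 angiogenesis inhibitors 2 were lower, Adamts1 (-0.75, p 0.0496) and Vash1 (-0.72, p 0.0493).

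Markers of other cells moved over the same weeks. White adipocyte markers were lower in 5 of 6, among them Adipoq (-1.07, p 0.011) and Fabp4 (-0.92, p 0.00149), with a list median of -0.98. Brown adipocyte markers were lower in 2 of 4 (median -1.60). Of 5 skeletal muscle markers 0 were called, with a median of 2.28. Log2 of their summed signal was 0.54 to 8.58 on the 2-week and 5.06 to 7.09 on the 8-week arrays. Without 8-week sham A the brown adipocyte and muscle medians were -0.86 and 2.07. Epithelial markers were higher in 3 of 7 (median 0.88) and Cd68, a macrophage marker, was the 1 leukocyte gene of 5 called (1.01, p 0.0149). Without 8-week sham A, 4 of 6 white adipocyte markers were lower (median -0.70) and 5 of 7 epithelial markers higher (median 1.19), beside -0.14 for all probes, and Plvap (0.88), Cldn5 (0.94), Esm1 (1.34), Adm (2.10), Pgf (1.03), Flt4 (0.91), Lyve1 (2.32), Icam1 (1.57) and Vcam1 (0.83) remained called, as did Nos3 (-0.71), Ptprb (-0.75), Notch1 (-1.79), Cspg4 (-0.78), Abcc9 (-1.35), Bnip3 (-0.87) and Vash1 (-0.96). Vegfb (-0.58, p 0.042), Jag1 (-0.46, p 0.0731) and Adamts1 (-0.43, p 0.131) were no longer called, and 3 of 12 mural cell markers, the contractile genes Acta2, Myh11 and Tagln, were then called higher. Their part in the changes of Vegfa, Kdr and Angpt1 was not tested.

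In the irradiated BALB/c arrays, where the median of all probes was -0.13, Esm1 was 1.63 higher at 8 than at 2 weeks (p 0.00117), Adm 1.5 (p 0.000987), Cldn5 1.07 (p 0.0165), Pgf 0.96 (p 0.00638) and Plvap 0.95 (p 0.00224). Ptprb (-1.14, p 0.015), Notch1 (-1.14, p 0.00483), Nos3 (-1.06, p 0.0261) and Vash1 (-0.73, p 0.00727) were lower there. White adipocyte markers were lower in 1 of 6 and brown adipocyte markers in 3 of 4, or in 1 of 4 without 8-week LDIR B. Over all probes 20.3% were called. Called in sham arrays but not here were, among others, Flt4, Lyve1, Eng, Vegfb, Jag1, Ndrg1, Bnip3 and Adamts1. Called here but not in sham arrays were Vegfc, Aplnr, Efnb2, Selp, Madcam1, Pdpn, Thbs1, Acta2, Des and Tagln (higher) and Apln and Ldha (lower). Without 8-week LDIR B, Nos3 (-0.58) was no longer called and the other 8 genes given with values here were.

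After LDIR at 4 weeks in BALB/c, 6 of the 76 genes in the pathway lists were called (7.89%), against 4.83% of all probes, in both directions. Esm1 (0.84), the stem and endothelial cell marker Cd34 (0.74), the inhibitor Thbs2 (0.90) and Adm (1.19) were higher, and Cldn5 (-1.0) and Egln3 (-0.63), an oxygen sensor, were lower, with limma adjusted p-values from 0.68 to 0.775. The macrophage markers Cd68 (0.81) and Emr1 (0.72) were higher in the same comparison, the basal keratins Krt5 (-0.73) and Krt14 (-0.93) and the brown adipocyte genes Cidea (-1.88) and Elovl3 (-2.52, above background on 2 of the 3 irradiated arrays) lower. At 8 weeks 1 of the 76 was called (1.32%), the lymphatic marker Lyve1, at -1.36 after LDIR (adjusted p of 1 in limma) and at -1.74 (0.959) without the 2 arrays with high leukocyte markers. In SPRET/EiJ 1 was called, Aplnr, the apelin receptor, at -1.01 (adjusted p of 0.972 in limma) and at -0.85 (0.771) without LDIR A. Without the arrays of high leukocyte markers 3 of the 76 were called (3.95%) at 8 weeks, against 4.35% of all probes. In SPRET/EiJ it was also 3 (3.95%), against 3.77%.

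Between the strains in sham mice, 7 of the 76 genes in the pathway lists were called (9.21%), close to the 8.89% of all probes. The lymphatic growth factor Vegfc (-2.03) and Esm1 (-1.64) were lower in BALB/c, while Ptprb (1.53) and Adamts1 (1.14) were higher. Of the mural cell list, Kcnj8 (4.27), Acta2 (3.68) and Des (1.49) were higher in BALB/c, Kcnj8 being above background on 1 of the 3 SPRET/EiJ arrays. The rest of that list was not called and went both ways. Pdgfrb (0.83), Abcc9 (0.74) and Cspg4 (0.64) were higher in BALB/c, and Tagln (-0.72), Rgs5 (-0.56) and Myh11 (-0.32) lower. In irradiated mice 2 of the 76 were called (2.63%), against 5.67% of all probes. Without SPRET/EiJ LDIR A it was 4 of the 76 (5.26%), 2 higher and 2 lower in BALB/c, against 7.9% of all probes. Acta2 was 3.68 higher in BALB/c, and 3.46 without SPRET/EiJ LDIR A. Kcnj8 was above background on none of the irradiated SPRET/EiJ arrays, so its BALB/c level exceeded theirs at least 19.4-fold (limma adjusted p of 0.000395). Slide and reference sequence limit these values as they do those of Angpt1 and Vwf.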

How the data were processed

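Mammary RNA of 24 mice was labelled with Cy3 and hybridised to Agilent SurePrint G3 arrays, 1 array per mouse. The deposited intensity values per spot were made by the authors' service laboratory with Feature Extraction 10.10.1.1, which subtracts background, and the authors' deposited log2 values were scaled to the 75th percentile of each array in GeneSpring GX 12.5. Here log2 of the deposited processed signal was taken after 3777 outlier spots were left out, spots of a probe were averaged and the 75th percentile over probes was subtracted. After centring each probe, 99.812% of the authors' log2 values lay within 0.01 of these. The scale shows only relative change, and values near background compress true differences.

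Groups came from the sample labels. Differences were tested with limma 3.58.1 in R 4.3.3 (lmFit and eBayes, two-sided) on all 55681 probes, and called at over 1.5-fold with p under 0.001 (strains) or 0.05, as in the methods, which state no threshold for time or irradiated strains. A strain difference of a probe above background on no array of 1 strain is given as a lower bound. All members were named, each by its brightest probe, along with the 10 genes most like the endothelial members. Members and gene lists were chosen with earlier results of these data known. One marker gene and the sequence of one probe are not reported here. The steps were tested on simulated data. The background of called probes is the share of all probes. Alternatives were normexp with an offset of 50, quantile normalization, the values of the authors, no removal of outlier spots, a filter for detected probes, the t-test of the methods, 1 fit of all arrays, the replicate letter or the slide as a block, the mean of a gene's probes and each array left out. Leaving out the arrays of high leukocyte markers, the irradiated arrays for time and the single time contrasts were added after the data were seen. The precision is limited by the number of arrays. Same-lettered 2-week arrays deviated together over the 29319 probes above background on all arrays (correlations of 0.167, 0.481 and 0.171). Over all probes they hardly did (0.013, 0.14 and -0.031), and the labels state no pairing. A fit paired by letter is therefore given only beside the unpaired one. Over the 29319 probes, in no other comparison did all 3 letters exceed 0.1 (-0.565 to 0.545).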

Additional observations from a re-analysis of the deposited data

Results flagged for a closer look

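Of the 112 genes in the pathway and marker lists, 5 (4.46%) differed between the strains in their change after LDIR at 4 weeks by the interaction test in limma, against 3.59% of all probes. Each had an unadjusted p under 0.05, a difference of over 1.5-fold and an adjusted p of 0.955, and none of the 10 did so. One of the 5, the Notch target Hey2, was above background on none of the 4-week arrays, and no size is given for it. The vasodilator peptide Adm rose by 1.19 in BALB/c and differed by -0.89 in SPRET/EiJ, a difference of 2.08 (p 0.00349), and of 1.67 (p 0.0056) without SPRET/EiJ LDIR A, which has high leukocyte markers. Esm1, a tip cell gene, changed by 0.84 and -0.79, a difference of 1.63 (p 0.00699), and of 1.35 (p 0.016) without that array. The hypoxia-responsive gene Ndrg1 changed by 0.45 and -0.24, a difference of 0.70 (p 0.0447), and of 0.75 (p 0.0358) without it. The platelet chemokine Pf4 changed by 0.94 and -0.41, a difference of 1.35 (p 0.036), and of 0.84 (p 0.0522) without it. The other platelet markers were not called and went both ways. Their differences were 0.73 for Gp1bb and 0.61 for Itga2b, but -1.26 for Ppbp and -0.39 for Gp9. Without SPRET/EiJ LDIR A Pf4 no longer met the p threshold. With all arrays, the 5 called genes all had the higher change in BALB/c. Without that array 8 of the 112 were called (7.14%), against 4.56% of all probes. Of these, 3 had a higher and 5 a lower change in BALB/c than in SPRET/EiJ.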

How the results depend on the processing

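With 3 arrays per group the intervals were wide, and most alternatives left the number of the 10 genes called as it was (160 values within 1.5 times, 13 moved). In sham mice the strain count of 0 became 1 with normexp, with quantile normalization, with detected probes only and with slide as a random block (Angpt1 each time), and 2 with the mean of all probes of a gene (Angpt1 and Vwf). In irradiated mice that mean gave 1 (Vwf, at 1.95, reversed from its brightest probe), and when all 24 arrays were fitted together with slide blocked, Cdh5 in sham mice reversed to -0.17. That fit ties the SPRET/EiJ slide to BALB/c through 8-week LDIR B and C, and B had high leukocyte markers. The LDIR counts ranged from 0 to 1 at 4 weeks and from 0 to 1 at 8 weeks over left-out arrays (Vegfa, without LDIR B in each case), and the 8-week count was 1 without the arrays of high leukocyte markers. The time count of 6 was 1 with slide as a block (Kdr, while Vegfa, Flt1 and Angpt1 still differed by -0.83, -0.86 and -0.85 between 8 and 4 weeks), 3 without the array of high leukocyte markers, 3 in irradiated arrays and 3 to 6 over left-out arrays. Which of these rests on slide and which on tissue was not tested. The replicate block gave 5 in the time test, where Pecam1 was lost (p 0.0582 in limma), and 0 in the other tests, and changed no other call. The methods' t-test gave the same counts of the 10 genes. Over all probes it called 2736 and 1905 between strains (sham, irradiated) and 909, 1383, 622 and 752 after LDIR (2, 4 and 8 weeks, SPRET/EiJ), where limma called 4950, 3157, 1699, 2690, 1068 and 1230, and with Benjamini-Hochberg adjustment 6292, 3854 and none after LDIR.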
